A study of Mus musculus with 6 samples.

Results

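Of the 6 libraries of mouse bladder tumor organoids in the series, 2 had little Krt5 RNA and 4 had much of it, and the 2 kinds are compared here. The libraries were grouped by their Krt5 level, with a cut at 100 TPM, the length-scaled unit of the deposited table: SRT1720 1 and Vehicle 2 lay under it (the Krt5-low libraries), and SRT1720 2, SRT1720 3, Vehicle 1 and Vehicle 3 lay above it (the Krt5-high libraries). The nearest library inside the Krt5-low side had 16.4 TPM of Krt5 and the nearest one outside had 425 TPM. Organoids are small 3-dimensional cultures, here from bladder tumors of C57BL/6 mice. By the labels, 3 libraries came from organoids given SRT1720, a compound developed to activate the deacetylase SIRT1, and the other 3 from organoids given vehicle. Tumor model, genotype, sex, age, dose, time, passage and whether replicates came from separate animals or cultures are not stated in the labels. The p-values therefore cover only the spread among these samples, and that spread may be technical. Because each side of the cut holds both treatments, a difference between the sides can be read within SRT1720 and within Vehicle separately. The cut was set on the outcome itself and every gene comes from the same libraries, so all differences between the sides are descriptions, with no test.

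Urothelium, the lining of the bladder, has a basal layer that rests on the basement membrane and carries keratin 5, and intermediate and umbrella cells above it that carry simple keratins such as keratin 8, keratin 18 and keratin 20 and, at the surface, uroplakins. Basal cells are bound to laminin through hemidesmosomes and depend on the transcription factor p63, encoded by Trp63. Bladder tumors are often sorted into basal-squamous and luminal kinds by the same genes.

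The depth recovered from the values was 18226844 to 22796213 reads per library, and 9002 to 9289 genes reached 1 TPM in each. All 6 libraries had epithelial RNA, with the adhesion gene Epcam at 69.4 to 191 TPM. Some markers of terminal umbrella cells were near 0 in all 6: Krt20 was at most 0.06 TPM, Upk2 at most 0.42 TPM, and Upk3a was listed at 0 throughout. Other uroplakin genes were not: Upk1b was at 0.66 to 12.1 TPM, the uroplakin-like Upk3bl at 0.22 to 9.13 TPM and Upk1a at 0.26 to 1.34 TPM. A mean of 1 TPM was reached by 3 of 22 leukocyte markers, 4 of 16 fibroblast markers, 1 of 10 markers of smooth muscle and 0 of 15 markers of endothelium. The pan-leukocyte gene Ptprc was at most 0.01 TPM and the endothelial gene Pecam1 at most 0.02 TPM. Vehicle 3 and SRT1720 3 stood apart in the summed RNA of the 2 mitochondrial ribosomal RNA genes, at 1562 and 702 TPM against 135 to 198 TPM in the other 4 libraries.

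For each of the 9287 genes that averaged 1 TPM or more, a linear model on log2(TPM + 1) with treatment as a covariate gave the difference Krt5-low minus Krt5-high and its standard error (SE). A gene was counted as higher or lower where this difference was at least 1 in size, which is 2-fold on that scale, and the 2 Krt5-low libraries lay on one side of all 4 Krt5-high ones. By that rule 211 genes were counted higher, 2.27% of those measured, and 196 were counted lower, 2.11%. Of the 211 higher genes, 187 were protein-coding, and 147 differed by at least 1 within SRT1720 and within Vehicle alike. Of the 196 lower genes, 183 were protein-coding and 147 met the same condition. The side of the Krt5 cut took up 41.3% of the variance over all genes and treatment 20.8%. Any split of 6 libraries takes up a part of the variance, and the Krt5 sides were chosen from these values. Neither share is a test. Over all genes the median difference was 0.03, and the median size of a difference was 0.24 between the Krt5 sides and 0.21 between the treatments.

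The plot of the difference within SRT1720 against that within Vehicle shows basal keratins at one end and chemokines at the other in both treatments. The simple keratin Krt18 lay towards the chemokine end, at 2.53 within SRT1720 and 2.08 within Vehicle. Pearson's r between the 2 sets of differences was 0.72 and Spearman's rho 0.62. Both are across genes, which are not independent replicates, and the 2 sets share no library. Taken in the same way, Pearson's r was 0.79 for SRT1720 3 with Vehicle 3 and 0.68 for SRT1720 2 with Vehicle 1. Such agreement was thus not particular to the Krt5-low libraries.

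**Figure D1:**
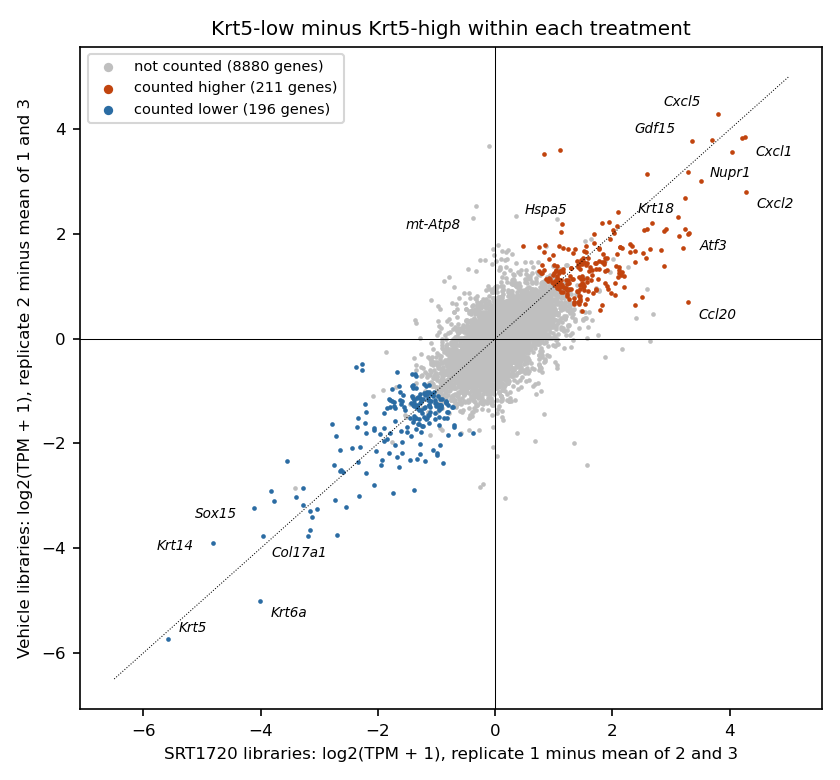
Difference in log2(TPM + 1) between the Krt5-low and the Krt5-high libraries, within SRT1720 (horizontal axis) and within Vehicle (vertical axis), for each of 9287 genes. Points are genes, coloured where counted higher (211) or lower (196) in the Krt5-low libraries, and the dotted line marks equal differences. Basal keratins and other basal genes lie at the lower left, and chemokine and stress genes and Krt18 at the upper right, in both treatments.

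The keratins of basal cells were lower in both Krt5-low libraries, and the simple keratin Krt18 was higher. Krt5 (chr15:101707070-101712898 on GRCm38), whose level chose the sides, had 16.4 TPM in SRT1720 1 and 9.61 TPM in Vehicle 2, and 616, 1120.1, 425 and 741 TPM in SRT1720 2, SRT1720 3, Vehicle 1 and Vehicle 3, in that order. Its partner in basal filaments, Krt14 (chr11:100203162-100207548), was at 18.7 and 18.9 TPM in the Krt5-low libraries against 443, 693, 307 and 290 TPM in the same order. The mean of Krt14 was thus 23.01-fold lower in the Krt5-low libraries, with a log2 difference of -4.36 (SE 0.28). In bulk RNA, fewer cells that make a transcript and less of it per cell cannot be told apart.

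Krt6a and Krt6b, keratins of activated and hyperproliferative epithelium, and Krt16 and Krt17, which are found with them, followed the same split. Krt6a was at 27.1 and 11.01 TPM in SRT1720 1 and Vehicle 2 and at 371 to 550.4 TPM in the 4 Krt5-high libraries, a log2 difference of -4.51 (SE 0.28). Krt17 kept more of its level, at 53.9 and 36.3 TPM against 206 to 832 TPM, a log2 difference of -3.22 (SE 0.59). Krt6a and Krt6b are closely alike in sequence, so reads may have been shared between them in the authors' counting.

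Krt15 and Krt13 did not separate the sides in the same way. Krt15, a keratin of basal progenitors, was at 0.38 and 0.31 TPM in the Krt5-low libraries, at 138 and 58.5 TPM in SRT1720 2 and Vehicle 1, and only at 1.58 and 1.12 TPM in SRT1720 3 and Vehicle 3. Krt13, a keratin of intermediate and non-cornified stratified cells, was at 89.4 and 47.7 TPM in SRT1720 2 and Vehicle 1, at 2.09 and 0.20 TPM in SRT1720 3 and Vehicle 3, and at 0.56 and 0.06 TPM in the Krt5-low pair. Its sides overlapped, so it was not counted. High Krt13 and Krt15 thus marked 2 of the 4 Krt5-high libraries, while Krt5, Krt14, Krt6a and Krt17 were high in all 4.

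Of the simple keratins, Krt18 and Krt7 were counted higher, and Krt8 and Krt19 overlapped between the sides. Krt18 (chr15:102028180-102032027) was at 226 and 162 TPM in SRT1720 1 and Vehicle 2, at 57.6 and 48.0 TPM in SRT1720 2 and Vehicle 1, and at 25.3 and 29.2 TPM in SRT1720 3 and Vehicle 3, a log2 difference of 2.31 (SE 0.38). Krt8, which pairs with keratin 18, was at 98.3 and 50.6 TPM in the Krt5-low libraries, but SRT1720 3 had 54.5 TPM of it, so the sides overlapped. Krt19 was at 71.3 and 37.0 TPM in the Krt5-low pair and at 22.1 to 60.7 TPM in the others, a log2 difference of 0.48 (SE 0.44). Krt7 was counted higher with a log2 difference of 1.58 (SE 0.93), and was close in 4 libraries: 15.6 and 15.4 TPM in the Krt5-low pair, 10.3 and 14.9 TPM in SRT1720 2 and Vehicle 1. In SRT1720 3 and Vehicle 3 it was at 0.80 and 1.82 TPM. Without SRT1720 3 and Vehicle 3 the Krt7 difference was 0.30. Krt18 lies 315.3 kb from Krt5 in the type II keratin cluster of chromosome 15 and 23.7 kb from Krt8, while Krt6a lies 12.8 kb from Krt5. Neighbours in that cluster therefore differed in opposite directions between the sides.

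**Figure D2:**
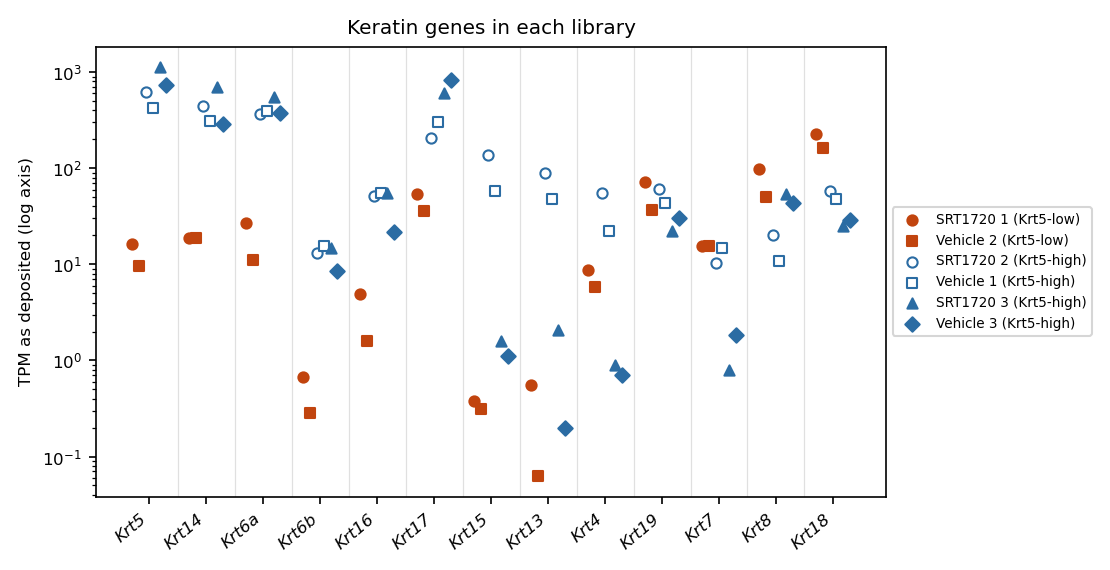
TPM of 13 keratin genes in each library, on a log axis; red points are the 2 Krt5-low libraries, blue points the 4 Krt5-high ones, and open blue points SRT1720 2 and Vehicle 1. Krt5, Krt14, Krt6a, Krt6b, Krt16 and Krt17 separate red from blue, Krt18 lies the other way, and Krt15, Krt13 and Krt4 are high in the open points.

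The list of basal urothelial markers had 19 measured members, of which 16 were counted lower and 0 higher. Its median log2 difference was -2.59, against 0.03 for all genes, and all 19 members lay below 0. These counts include Krt5, which set the sides; without it 15 of 18 were counted lower, all 18 lay below 0 and the median was -2.58. Trp63, the basal lineage regulator, was at 0.58 and 0.26 TPM in the Krt5-low libraries and at 3.61 to 10.7 TPM in the Krt5-high ones, a log2 difference of -2.57 (SE 0.38). The desmosomal cadherins Dsc3 and Dsg3 differed by -3.37 (SE 0.23) and -2.57 (SE 0.25). The 3 members not counted were Cd44 at -0.89, the neurotrophin receptor Ngfr at -0.76 and Egfr at -0.13. Egfr had 2.08 and 2.33 TPM in the Krt5-low libraries, within the 1.88 to 3.88 TPM of the Krt5-high ones. Basal identity genes were thus low as a group while this growth factor receptor was not set apart.

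Genes that anchor basal cells to their matrix were lower in part. Of 18 measured hemidesmosome and basement membrane genes, 6 were counted lower and 0 higher, with a median log2 difference of -0.60. Col17a1, the transmembrane collagen of hemidesmosomes, was at 1.45 and 1.56 TPM in the Krt5-low libraries against 23.97, 57.8, 22.0 and 52.6 TPM in SRT1720 2, SRT1720 3, Vehicle 1 and Vehicle 3, a 26.0-fold difference of means. The hemidesmosomal integrin pair Itga6 and Itgb4 differed by -1.48 (SE 0.24) and -1.90 (SE 0.30). Among the chains of the laminin that binds hemidesmosomes, Lama3 differed by -2.34 (SE 0.44) and Lamb3 by -1.68 (SE 0.40). Lama5, a chain of the laminin of most epithelial basement membranes, lay in the opposite direction at 0.59 (SE 0.19) and was not counted.

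Luminal genes other than keratins did not form a matching gain. Upk1b, a uroplakin, was at 1.47 and 0.66 TPM in the Krt5-low libraries and at 2.72 to 12.1 TPM in the Krt5-high ones, and the uroplakin-like gene Upk3bl was counted lower as well. Of 16 measured urothelial transcription factors, 0 were counted in either direction, and their median difference was -0.07. Foxa1, a luminal regulator, was at 18.5 and 9.94 TPM in the Krt5-low libraries and at 20.9, 6.21, 11.2 and 4.17 TPM in SRT1720 2, SRT1720 3, Vehicle 1 and Vehicle 3. Elf3, an epithelial differentiation factor, differed by 0.59 (SE 0.17), and the retinoid receptor gene Rxra by -0.95 (SE 0.16). The Pparg level was at most 0.69 TPM in any library.

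Cell junction genes differed in both directions. Of 27 measured members, 5 were counted higher, all of the tight junction: Cldn3, Cldn4, Cldn12, Ocln, and Cgn, which encodes cingulin. The 3 counted lower were the gap junction gene Gja1, the desmosome plaque gene Dsp and the nectin gene Nectin1. Cldn4 was at 57.5 and 66.3 TPM in the Krt5-low libraries and at 11.04 to 22.3 TPM in the Krt5-high ones, a log2 difference of 1.85 (SE 0.31). Gja1 was at 1.41 and 1.80 TPM against 7.95 to 12.6 TPM, a log2 difference of -2.02 (SE 0.20). Neither gene's sides overlapped. Cldn7 was 1 of the members that did not follow the split: it was at 19.97 and 13.3 TPM in the Krt5-low libraries and at 21.9 and 19.5 TPM in SRT1720 3 and Vehicle 3, but at 0.17 and 0.21 TPM in SRT1720 2 and Vehicle 1.

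Squamous differentiation genes were lower in part. Of 16 measured, 9 were counted lower and 1 higher, and the median log2 difference was -1.46. The other 6 were not counted. Sprr2a1, a small proline-rich protein of the cornified envelope, was at 15.2 and 7.83 TPM in the Krt5-low libraries against 107 to 164 TPM, a log2 difference of -3.40 (SE 0.20). Sprr2a1 and Sprr2a2 are near-identical copies, so the reads of each are uncertain. The member counted higher was Sprr1a, of the same gene family, which is also induced by injury: it was at 41.9 and 57.9 TPM in the Krt5-low libraries, at 7.29 and 17.1 TPM in SRT1720 2 and Vehicle 1, and at 1.51 and 3.57 TPM in SRT1720 3 and Vehicle 3. Dmkn, a secreted epidermal protein gene, was high in SRT1720 3 and Vehicle 3 alone, at 24.5 and 25.3 TPM against 0.12 to 2.05 TPM in the other 4 libraries. Krtdap, linked to stratified epithelial differentiation, was listed at 0 in both Krt5-low libraries and was at 1.495 to 13.2 TPM in the others.

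Inflammatory genes held the largest differences in the other direction. NF-kB is a family of transcription factors that turn on chemokines, cytokines and acute-phase genes in stressed or stimulated epithelium. Of 22 measured members of the list of such genes, 11 were counted higher and 1 lower, and the median log2 difference was 1.34. The neutrophil-attracting chemokine Cxcl1 was at 91.8 TPM in SRT1720 1 and 80.3 TPM in Vehicle 2, at 21.8 and 30.5 TPM in SRT1720 2 and Vehicle 1, and at 0.03 and 0.01 TPM in SRT1720 3 and Vehicle 3. Its sides did not overlap, and the 4 Krt5-high libraries fell into an intermediate pair and a pair near 0. The log2 difference of Cxcl1 was 4.05 (SE 1.68), and it was 1.70 without SRT1720 3 and Vehicle 3.

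The same 3 steps ran through most of the top genes of this list. Csf3, which encodes the granulocyte growth factor G-CSF, was at 157 and 107 TPM in the Krt5-low libraries, at 24.8 and 31.7 TPM in SRT1720 2 and Vehicle 1, and at 1.80 and 0.74 TPM in SRT1720 3 and Vehicle 3. Cxcl5, another neutrophil chemokine, was at 106 and 129.8 TPM, then 28.8 and 23.3 TPM, then 0.99 and 0.83 TPM in the same order. Saa3, an acute-phase apolipoprotein, had 38.7 and 36.9 TPM in the Krt5-low pair and 9.06 TPM or less in the others. Lcn2, an iron-binding antimicrobial protein, was highest in Vehicle 2 at 108 TPM, and Vehicle 1 with 40.9 TPM came near SRT1720 1 with 53.3 TPM. Without SRT1720 3 and Vehicle 3, the log2 differences were 2.17 for Csf3, 2.13 for Cxcl5, 2.38 for Saa3 and 1.61 for Lcn2, against 4.03, 4.04, 3.804 and 3.75 with all 6 libraries. The Krt5-low libraries were above all others in each of these genes, while the size of each difference rested in large part on the pair SRT1720 3 and Vehicle 3.

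Other members differed between the 2 Krt5-low libraries. Cxcl2 reached 74.6 TPM in SRT1720 1 and 25.9 TPM in Vehicle 2, whereas the Krt5-high libraries had 1.15 to 5.85 TPM. The chemokine gene Ccl20 was at 53.6 and 13.2 TPM against 3.95 to 8.81 TPM, and Lif, a cytokine of the interleukin 6 family, at 47.3 and 11.6 TPM against 1.40 to 5.53 TPM. The cytokine gene Tnf was at 8.55 and 2.58 TPM against 0.80 to 1.64 TPM. All 4 genes were higher in SRT1720 1 than in Vehicle 2, and with 1 library of each treatment this cannot be told apart from a difference between libraries. Tslp, a cytokine that acts on dendritic cells, was the member counted lower, at 1.32 and 1.48 TPM against 4.04 to 6.60 TPM.

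The promoters of Cxcl1 and Cxcl2 are shown because these neighbours, 10.8 kb apart on chromosome 5, differed together; Cxcl5 and Cxcl15 lie in the same cluster. Both stretches come from RefSeq on GRCm38.p6 and end before the start of transcription: chr5:90891101-90891220 for Cxcl1 and chr5:90903747-90903866 for Cxcl2, both on the plus strand. Capitals mark matches on either strand to GGG, any 3 bases and TTCC, a form of the NF-kB site, chosen after these sequences had been seen.

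Cxcl1: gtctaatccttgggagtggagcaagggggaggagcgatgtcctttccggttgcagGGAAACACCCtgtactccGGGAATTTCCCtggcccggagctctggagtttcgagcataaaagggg
Cxcl2: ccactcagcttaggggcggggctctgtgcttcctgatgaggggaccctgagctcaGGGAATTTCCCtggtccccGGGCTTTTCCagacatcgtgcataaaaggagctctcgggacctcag

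Each stretch holds 3 matches, of which 2 overlap on opposite strands in 1 capital run. Of the 11 genes of the list counted higher, 9 had a RefSeq promoter window of 250 bases before to 50 bases after the start, and 4 of them (44.4%) held a match: Ccl20, Cxcl1, Cxcl2 and Il1rn. Windows of Cxcl15, Lcn2, Lif, Saa3 and Tnf held none of these letters. The share was 12.8% of all genes counted higher, 4.65% of those counted lower, 7.43% of all genes measured and 5.56% of all 32851 windows. A match is a description of the letters, not a measured site. Other letters were searched too, with shares given for genes counted higher, counted lower and all measured. Those of the AP-1 site (TGANTCA) were in 12.8%, 11.6% and 5.72%, and the TATA box (TATAAA) in 10.8%, 14% and 4.8%. Those of the AP-2 site (GCCNNNGGC) were in 25.7%, 26.4% and 29.7%, and those of the GATA site (AGATAA) in 10.1%, 5.43% and 6.46%.

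Genes of the ATF4 stress response were higher as a group. ATF4 is a transcription factor made when cells lack amino acids or carry unfolded protein, and its targets take up and make amino acids, charge transfer RNAs and, under lasting stress, favour cell death. Of 30 measured members, 20 were counted higher and 0 lower, and all 30 lay above 0, with a median log2 difference of 1.19. The median was 1.46 within SRT1720 and 1.03 within Vehicle. Without SRT1720 3 and Vehicle 3 it was 0.86.

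The stress effectors had the largest differences. Nupr1, a small stress-induced chromatin protein, was at 26.0 and 65.1 TPM in SRT1720 1 and Vehicle 2, against 1.89, 0.95, 7.99 and 6.41 TPM in SRT1720 2, SRT1720 3, Vehicle 1 and Vehicle 3, a log2 difference of 3.26 (SE 0.23). Chac1, an enzyme that degrades glutathione, was at 44.5 and 67.6 TPM against 2.41 to 18.6 TPM, and Atf3, a stress-induced repressor, at 26.5 and 16.1 TPM against 1.64 to 4.40 TPM. Trib3, a feedback inhibitor of ATF4, did not separate as clearly: Vehicle 1 had 28.9 TPM beside 30.7 and 34.0 TPM in the Krt5-low pair. Ddit3, which encodes the death-linked factor CHOP, was not counted because Vehicle 1, at 17.0 TPM, exceeded the 15.5 TPM of SRT1720 1. Vehicle 1 was thus the Krt5-high library nearest to the Krt5-low ones in several of these genes.

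Members that serve amino acid metabolism were counted higher in most cases named here. The serine pathway genes Phgdh and Psph differed by 1.39 (SE 0.50) and 1.14 (SE 0.40), the mitochondrial folate enzyme Mthfd2 by 1.44 (SE 0.45) and the cysteine-making enzyme Cth by 2.26 (SE 0.38). The amino acid transporter subunits Slc7a5 and Slc3a2 differed by 1.65 (SE 0.47) and 1.44 (SE 0.32). The transfer RNA synthetases Nars, Sars and Wars were each counted higher, while Gars, at 0.79 (SE 0.47), overlapped. Atf4 itself was at 133 and 160 TPM against 52.6 to 109.8 TPM, a log2 difference of 1.01 (SE 0.25). Asns, the asparagine synthetase gene and a standard target, was at 38.1 and 35.1 TPM in the Krt5-low pair but at 49.0 TPM in Vehicle 1, and was not counted.

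Promoter stretches of 4 members are shown because they hold the letters TGATGNAA, the core of the element bound by C/EBP and ATF factors together, before the start of transcription. They are from RefSeq on GRCm38.p6: chr2:119350993-119351112 on the plus strand for Chac1, and on the minus strand chr7:126625517-126625636 for Nupr1, chr3:50443616-50443735 for Slc7a11, the cystine transporter gene, and chr1:191183380-191183499 for Atf3. The Nupr1 and Atf3 stretches lie inside the spans of those genes in GENCODE, each before a start within the span. Capitals mark the matches on either strand.

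Chac1: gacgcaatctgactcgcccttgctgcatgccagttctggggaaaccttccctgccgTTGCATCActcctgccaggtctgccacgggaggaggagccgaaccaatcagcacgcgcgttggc
Nupr1: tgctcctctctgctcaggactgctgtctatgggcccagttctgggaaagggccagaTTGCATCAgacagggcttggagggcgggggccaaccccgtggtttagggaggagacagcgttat
Slc7a11: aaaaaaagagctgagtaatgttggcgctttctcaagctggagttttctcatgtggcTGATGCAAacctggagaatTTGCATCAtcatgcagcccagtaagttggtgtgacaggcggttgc
Atf3: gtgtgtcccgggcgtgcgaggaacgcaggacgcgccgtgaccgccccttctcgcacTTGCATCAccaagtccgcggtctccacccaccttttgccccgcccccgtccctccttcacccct

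Of the 20 counted members, 16 had a promoter window, and 5 of these (31.2%) held a match; the fifth, in Trib3, lay after the start. The letters were in 10.8% of the windows of all genes counted higher, 3.1% of those counted lower, 2.42% of all genes measured and 3.97% of all windows. The 16 windows include those of the list members just named, so the share of all higher genes is not independent of them.

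Chaperones of the endoplasmic reticulum, another arm of the response to unfolded protein, were high mainly in Vehicle 2. Of 22 measured, 2 were counted higher, Herpud1 and Dnajb9, and 0 lower. Herpud1, a membrane protein of protein degradation, was at 17.3 and 21.3 TPM in the Krt5-low libraries and at 2.84 to 6.93 TPM in the others, a log2 difference of 2.02 (SE 0.30). The median of the list was 0.09 within SRT1720 and 1.08 within Vehicle. Hspa5, the main luminal chaperone, was at 221 TPM in Vehicle 2 and at 47.2 TPM in SRT1720 1, beside 30.0 to 61.3 TPM in the 4 Krt5-high libraries. The higher level of this list on the Krt5-low side was thus that of Vehicle 2, and the list's median was 0.09 without that library.

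**Figure D3:**
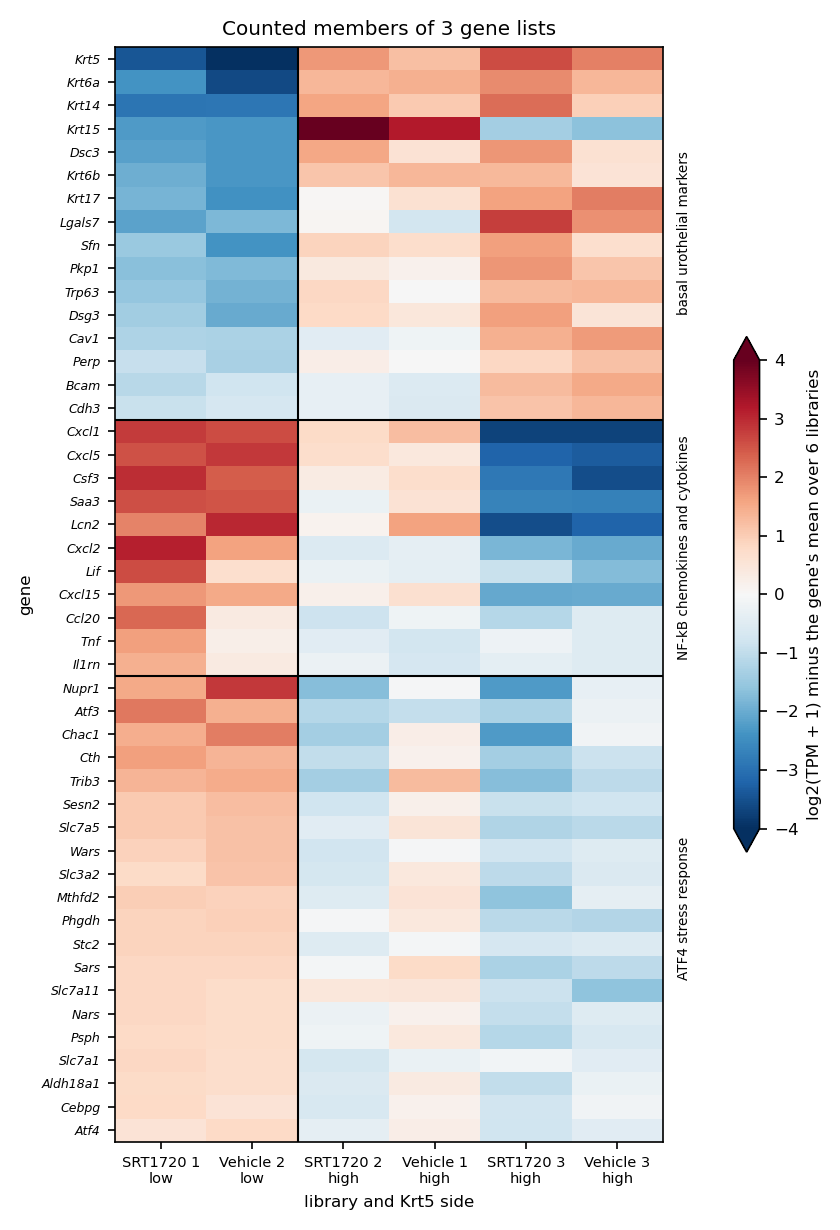
Level of the counted members of 3 gene lists in each library, as log2(TPM + 1) minus the gene's mean over the 6 libraries (red above, blue below, with colours saturating at the ends of the scale). Columns 1 and 2 are the Krt5-low libraries. Chemokine genes are lowest in SRT1720 3 and Vehicle 3, and several ATF4 genes of Vehicle 1 are near or above their mean.

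Immediate early genes, which are switched on within minutes of a stimulus, were higher for a subset. Of 19 measured, 8 were counted higher and 0 lower: Atf3, Myc, Klf6, Maff, Jun, Jund, Dusp4 and Dusp5. Myc, a growth regulator, was at 19.96 and 23.4 TPM in the Krt5-low libraries, at 9.75 and 11.5 TPM in SRT1720 2 and Vehicle 1, and at 4.04 and 5.19 TPM in SRT1720 3 and Vehicle 3. Fos, at 3.99 and 2.78 TPM against 1.03 to 1.59 TPM, did not overlap but differed by less than 1, and Egr1 overlapped. Nr4a1 lay between 6.64 and 9.18 TPM in all 6 libraries.

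Few cell cycle genes were counted. All 3 genes of the mitosis list that were counted were lower: Aurkb, Mki67 and Kif20a, of 32 measured, with a list median of -0.59 and 31 members below 0. The proliferation antigen Mki67 was at 11.3 and 8.80 TPM in the Krt5-low libraries and at 31.1, 32.6, 20.6 and 19.2 TPM in SRT1720 2, SRT1720 3, Vehicle 1 and Vehicle 3, a log2 difference of -1.25 (SE 0.16). Of 30 measured genes of DNA replication, 0 were counted in either direction, and their median difference was 0.22. Pcna, the replication clamp, was at 37.4 and 24.8 TPM against 17.3 to 34.0 TPM, so its sides overlapped. The difference between these 2 lists was not tested.

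The inhibitor of cyclin-dependent kinases Cdkn1a was at 20.2 and 20.4 TPM in the Krt5-low libraries and at 2.70 to 5.22 TPM in the Krt5-high ones, a log2 difference of 2.12 (SE 0.24). It is a target of p53, and of the 22 measured p53 targets 3 were counted higher (Cdkn1a, Sesn2 and Btg2) and 2 lower (Phlda3 and Perp). Of the 22, 18 lay above 0, with a median log2 difference of 0.54 (0.63 within SRT1720 and 0.75 within Vehicle). At any size of difference, the Krt5-low libraries lay above all others in 12 and below all others in 3. Over all 9287 genes these counts were 1506 and 1139. Sesn2 is also in the ATF4 list and Perp, a desmosome protein, also in the basal list. Phlda3 was at 6.09 and 11.9 TPM against 25.6 to 76.8 TPM. Trp53 itself differed by 0.65 (SE 0.16) and was not counted. Cdkn2a was above 23 TPM in all 6 libraries.

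Cholesterol synthesis genes all lay on the lower side, 7 of them far enough to be counted. The pathway is switched on by SREBP2 when sterols are scarce. Of 22 measured members, 7 were counted lower and 0 higher, and all 22 lay below 0, with a median log2 difference of -0.78. Hmgcs1, the enzyme that makes HMG-CoA, was at 9.46 and 8.69 TPM in the Krt5-low libraries and at 36.5, 62.6, 19.9 and 40.7 TPM in SRT1720 2, SRT1720 3, Vehicle 1 and Vehicle 3, a log2 difference of -1.92 (SE 0.37). Scd2, a fatty acid desaturase, was counted lower and Plin2, the coat protein of lipid droplets, counted higher.

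Of 19 measured glycolysis genes 0 were counted in either direction, although 16 lay below 0, with a median of -0.45. Ldha, lactate dehydrogenase, was at 55.1 and 25.8 TPM against 52.3 to 117 TPM. Among 17 measured HIF targets, 2 were counted lower (the carbonic anhydrase gene Car12 and Egln3) and 2 higher (Ndrg1 and Stc2, the latter also in the ATF4 list). Of 30 measured genes of xenobiotic and glutathione metabolism, 3 were counted lower (Gsta4, Mgst3 and Cyp2s1) and 1 higher, Slc7a11. The glutathione transferase Gsta4 was at 35.4 and 18.9 TPM in the Krt5-low libraries and at 145 to 232 TPM in the others, a log2 difference of -2.88 (SE 0.27).

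Growth factor and morphogen genes were counted in small numbers. Over all genes measured, 2.11% were counted lower and 2.27% higher. Of 16 measured ERBB and FGFR genes, 3 were counted lower and 0 higher: the EGFR ligand Epgn, Fgfbp1, which releases fibroblast growth factors, and Nrg2. Epgn was at 0.91 and 0.21 TPM against 5.54 to 8.72 TPM, whereas the receptors Egfr, Erbb2, Erbb3 and Fgfr3 were not counted. In the WNT and hedgehog list 4 of 19 were counted lower: the WNT inhibitor Sfrp1, the ligand Wnt4, the transcription factor Tcf7 and the hedgehog transducer Smo. The ligand Wnt7b was counted higher, at 12.6 and 14.7 TPM against 3.52 to 9.10 TPM. In the NOTCH list 1 of 13 was counted, the ligand Jag2, which was lower at 3.41 and 6.95 TPM against 8.98 to 21.2 TPM.

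In the TGF-beta and BMP list 5 of 18 were counted lower, among them the BMP ligand Bmp7, the activin antagonist Fst and the BMP-induced inhibitors Id1, Id2 and Id4. Id1 was at 38.0 and 20.5 TPM in the Krt5-low libraries and at 52.2 to 90.3 TPM in the others, a log2 difference of -1.12 (SE 0.23). The single member counted higher was Gdf15, a stress-induced secreted factor: it was at 13.6 and 50.4 TPM in SRT1720 1 and Vehicle 2, against 0.59, 0.25, 7.403 and 0.67 TPM in SRT1720 2, SRT1720 3, Vehicle 1 and Vehicle 3, a log2 difference of 3.57 (SE 0.61). Among the Krt5-high libraries Vehicle 1 stood apart with the highest level.

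Among YAP and TEAD targets 1 of 18 was counted higher (Ankrd1) and 1 lower (Igfbp3). Of 20 measured interferon response genes 3 were counted higher, Cxcl10, Rsad2 and Ifit1, and 0 lower. Cxcl10, a chemokine for T cells, was at 6.52 and 3.39 TPM against 0.05 to 0.88 TPM. Rsad2 and Ifit1 were nearly absent in SRT1720 2 and Vehicle 1, with 0.08 and 0.02 TPM of Rsad2. In the same gene SRT1720 3 had 0.78 TPM, and only Vehicle 3, at 2.84 TPM, came near the 3.70 and 3.36 TPM of the Krt5-low pair. The antigen presentation genes B2m, H2-K1 and H2-D1 overlapped between the sides.

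Of 14 measured mesenchymal genes, 4 were counted lower (Tgfbi, Snai2, Tnc and Sparc) and 0 higher. Snai2, an epithelial to mesenchymal regulator that basal cells also make, was at 1.98 and 0.95 TPM against 5.32 to 12.5 TPM. Vim, which encodes the mesenchymal filament protein vimentin, was at 14.3 and 17.0 TPM in SRT1720 2 and Vehicle 1, at 4.99 and 4.95 TPM in the Krt5-low pair, and at 0.07 and 0.65 TPM in SRT1720 3 and Vehicle 3. The fibroblast genes Fbln1 and Fbln2 were counted lower, and the summed level of the 16 fibroblast markers was 3.803 to 5.125 TPM in the Krt5-low libraries and 9.15 to 14.9 TPM in the others. Without these 2 genes the other 14 markers summed to 2.78 and 4.50 TPM in SRT1720 1 and Vehicle 2, to 7.65 and 13.15 TPM in SRT1720 2 and Vehicle 1, and to 0.10 and 0.17 TPM in SRT1720 3 and Vehicle 3, so the sides overlapped. The stromal genes Col1a1, Dcn and Pdgfra reached at most 0.49, 2.62 and 0.26 TPM. The part of other cells in the differences was not tested.

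Of the leukocyte markers, the endotoxin co-receptor gene Cd14, which epithelial cells can also make, was counted higher, at 26.5 and 14.5 TPM against 1.04 to 8.97 TPM. The macrophage gene Lyz2 was at 10.5 and 14.3 TPM in SRT1720 2 and Vehicle 1 and listed at 0 in the other 4 libraries. The summed level of the 22 leukocyte markers was 16.8 to 28.0 TPM in the Krt5-low libraries and 2.29 to 26.5 TPM in the Krt5-high ones. Most of the sum in the Krt5-low libraries was Cd14. The part of other cells in the higher Cd14 level was not tested.

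Other lists held few counted genes. Of 36 measured ribosomal protein genes and 9 retinoid genes 0 were counted, and of 15 genes encoded in mitochondria 1 was, the ribosomal RNA gene mt-Rnr1, which was lower. Among 27 measured genes often altered in bladder tumors, Cdkn1a and Myc were counted higher and Cdkn2c lower. Among 23 measured proteases, inhibitors and matrix enzymes, the plasminogen activator Plat and the receptor of urokinase, Plaur, were counted higher, and the serine protease inhibitors Serpinb2 and Serpinb5 lower.

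**Figure D4:**
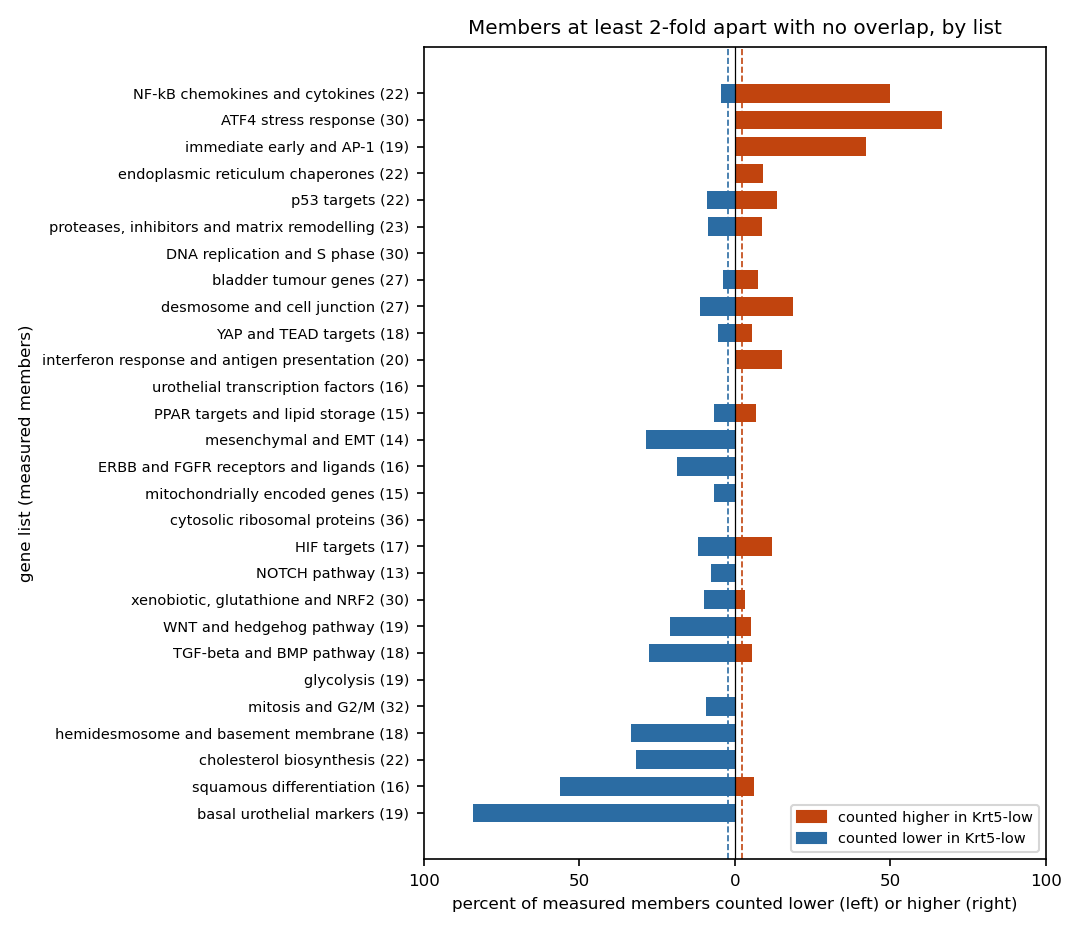
Share of the measured members of each gene list (at least 10 measured, number in brackets) counted lower (blue, left) or higher (red, right) in the Krt5-low libraries, in percent, ordered by the list's median difference. Dashed lines mark the shares over all genes, 2.11% lower and 2.27% higher. Basal, squamous, cholesterol and hemidesmosome genes extend furthest to the left, and ATF4, NF-kB and immediate early genes furthest to the right.

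Among the other protein-coding genes with the largest differences, Fgf21, a stress-induced hormone, was at 5.74 and 14.6 TPM in the Krt5-low libraries and at 0.10 to 1.39 TPM in the Krt5-high ones. Adm2, a peptide hormone gene, was at 7.64 and 4.60 TPM against at most 0.20 TPM. Gprc5a, a retinoid-induced membrane receptor, was at 43.2 and 40.5 TPM against 1.01 to 14.0 TPM. The lysosomal protease gene Ctsz was at 40.4 and 45.0 TPM in the Krt5-low pair and at 14.3 and 18.5 TPM in SRT1720 2 and Vehicle 1, but at 0.18 and 0.31 TPM in SRT1720 3 and Vehicle 3. Its log2 difference was 3.24 (SE 1.35), and 1.34 without the last 2 libraries.

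On the lower side, Sox15, a transcription factor of stratified epithelium, was at 0.41 and 0.27 TPM in the Krt5-low libraries and at 24.1, 22.9, 13.6 and 8.68 TPM in SRT1720 2, SRT1720 3, Vehicle 1 and Vehicle 3, a 51.1-fold difference of means. Tns4, a focal adhesion protein, was at 2.61 and 1.17 TPM against 15.3 TPM or more. Aqp3, the water and glycerol channel of basal urothelium, was at 1.35 and 0.27 TPM, at 8.58 and 2.71 TPM in SRT1720 2 and Vehicle 1, and at 62.5 and 28.2 TPM in SRT1720 3 and Vehicle 3. For Sox15 and Tns4 all 4 Krt5-high libraries were well above the Krt5-low pair, whereas for Aqp3 they were again in 2 steps.

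The Krt5-high libraries were thus not uniform. Of the 211 genes counted higher, SRT1720 2 and Vehicle 1 both lay above SRT1720 3 and Vehicle 3 in 107 (50.7%), against 27.1% of all genes measured. Of the 196 counted lower, they both lay below in 103 (52.6%), against 18.4% of all genes. In the principal component with the most variance (48.5%), SRT1720 1 and Vehicle 2 scored 27.5 and 35.8, SRT1720 2 and Vehicle 1 scored -5.98 and 3.46, and SRT1720 3 and Vehicle 3 scored -33.4 and -27.4. The 6 libraries lay along it as 3 pairs, each of 1 SRT1720 and 1 Vehicle library. No label names such pairs.

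The genes of chromosome 3 differed as a block between the pairs. Their median log2 difference was 0.36 over 407 genes, and they held 26 of the 211 higher genes, 12.3% against 4.38% of the genes measured. Relative to each gene's mean, the median chromosome 3 gene was at -0.39 and -0.41 in SRT1720 3 and Vehicle 3 and at 0.14 to 0.26 in the other 4 libraries. Without SRT1720 3 and Vehicle 3 the chromosome's median difference between the sides was 0.08. On chromosome 14 the same 2 libraries were high, at 0.18 and 0.16, and SRT1720 2 and Vehicle 1 low, at -0.13 and -0.23. Chromosome 5, which carries the Cxcl cluster, had a median difference of 0.16 and 22 of the higher genes, 10.4% against 6.30% of the genes measured. Chromosome 15, with the type II keratins, had a median difference of 0.02 and 17 of the higher genes, 8.06% against 4.16%. The part of gene dosage in these values was not tested.

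**Figure D5:**
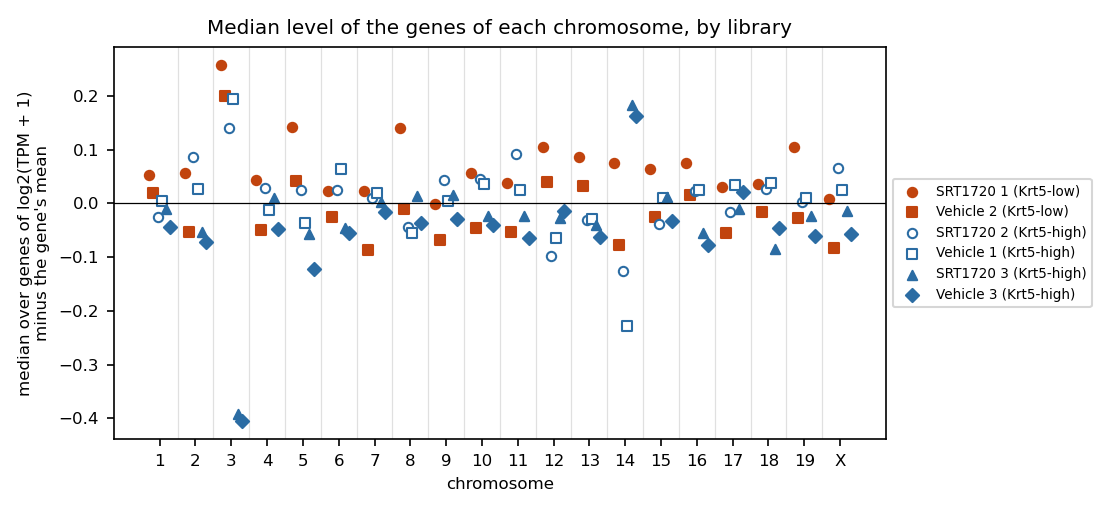
Median over the genes of each chromosome of log2(TPM + 1) minus the gene's mean, for each library; red points are the Krt5-low libraries and blue points the Krt5-high ones. On chromosome 3 SRT1720 3 and Vehicle 3 lie at -0.39 and -0.41 with the other 4 libraries above 0, and on chromosome 14 the same 2 libraries lie above the others.

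SRT1720 was compared with Vehicle with the Krt5 side in the model, since each side holds both treatments. The treatment is from the labels, but the side was read from the same values, so these p-values depend on that choice. Limma called 0 of 9287 genes (0%) at an adjusted p of 0.05, and the smallest adjusted p was 0.0985. In this model the Krt5-high side pools the pairs SRT1720 2 with Vehicle 1 and SRT1720 3 with Vehicle 3, which lay apart from each other. Unadjusted p-values under 0.05 were reached by 1709 genes, 1037 higher and 672 lower with SRT1720, against 1153 genes in the model without the Krt5 side. Taking the side into account made the median standard error of the treatment difference 0.879 times as large. As the side was chosen from these values, both changes are descriptions. Of the 407 genes counted between the Krt5 sides, 64 (15.7%) had an unadjusted treatment p under 0.05, against 18.4% of all genes.

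The genes with the smallest treatment p included some that hardly differed between the Krt5 sides. Mt1, a metallothionein that binds zinc and copper, was at 65.8, 60.1 and 110.2 TPM with SRT1720 and at 8.56, 11.7 and 11.8 TPM with Vehicle, a log2 difference of 2.73 (SE 0.28, limma adjusted p = 0.0985). For the RNA helicase gene Dhx9 the mean was 9.86 ± 0.99 TPM with SRT1720, against 2.29 ± 0.54 TPM in the Vehicle libraries (SD, n = 3 each; limma adjusted p = 0.0985). Pim1, a kinase induced by cytokines, averaged 2.34 ± 1.18 TPM with SRT1720, against 6.67 ± 2.83 TPM in the Vehicle libraries (SD, n = 3 each; limma adjusted p = 0.0985). For Mt1 and Dhx9 all 3 SRT1720 libraries lay above all 3 Vehicle libraries, and the difference between the Krt5 sides was -0.05 and -0.17. None of the 3 genes passed the threshold.

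Without SRT1720 3 and Vehicle 3, the pair that stood apart in chromosome 3 and mitochondrial ribosomal RNA, limma called 258 genes (2.78%), 146 higher and 112 lower, from 1 residual degree of freedom. In the 4 libraries left, the Krt5 sides are the pairs SRT1720 1 with Vehicle 2 and SRT1720 2 with Vehicle 1. These pairs and the pair left out were read from the same values. The adjusted p-values of this fit are therefore descriptions of the 4 libraries and no independent test. All 258 had the same direction with all 6 libraries, and 222 had an unadjusted p under 0.05 there. The fit with all 6 holds the same 4 libraries, so this agreement is no separate support. Mt1 was among those called, with a log2 difference of 2.54 (SE 0.21, limma adjusted p = 0.00118). The clock repressor gene Nr1d1 was at 1.95 and 3.04 TPM with SRT1720 and at 13.3 and 10.1 TPM with Vehicle in the 4 remaining libraries (limma adjusted p = 0.00272), and SRT1720 3 and Vehicle 3 had 2.43 and 7.46 TPM.

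Whether the treatment difference itself differed between the Krt5 sides was tested as an interaction. Limma called 0 genes (0%), with a smallest adjusted p of 0.9998 and 266 genes at an unadjusted p under 0.05, and with 1 Krt5-low library per treatment it had 2 residual degrees of freedom. The genes with the smallest unadjusted p were led by the pseudogene Gm5561, the mitochondrial gene mt-Atp8 and Crct1, a cysteine-rich epidermal gene. Crct1 was at 13.9 TPM in Vehicle 2 and 1.30 TPM in SRT1720 1, against 0.13 to 0.49 TPM in the Krt5-high libraries. These differences rest on a single library and did not pass the threshold.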

How the data were processed

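RNA-seq of 6 mouse bladder tumor organoid libraries (3 SRT1720, 3 Vehicle) was analysed from the authors' single deposited table of 51912 gene IDs, whose values its name calls TPM. The deposited TPM sum to 161231 to 171577 per library, not to the fixed total of that unit. The submitters' processing notes name STAR 2.6.0 and GRCm38. The counter and annotation were not given in the sources used here. IDs were matched to GENCODE M21 (51719 of 51912). At its exon lengths the values of 11044 of 27713 genes above 0 (39.851%) were whole numbers of reads within 0.01. For 16668 others the smallest length that gave whole reads was taken instead. Depth is the sum over both kinds of gene, so it depends on these lengths. Low values carry counting error that the model does not use. Pseudogenes held 44.0 to 46.9% of the sum and protein-coding genes 48.7 to 51.3%, so reads of near-identical copies may be split or moved between genes.

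Differences are of log2(TPM + 1), computed from the deposited values for the 9287 genes that averaged 1 TPM or more. Treatment and its interaction with the Krt5 side were tested with limma 3.58.1 (trend) in R 4.3.3, with Benjamini-Hochberg adjustment over all genes and a threshold of 0.05. The scripts were tested on simulated data first. Named genes were Krt5, Krt14 and Krt18, the 15 protein-coding genes with the largest and the 15 with the smallest difference among those counted, up to 5 members of each list by size of difference, the 8 smallest treatment p in each direction and the 5 smallest interaction p; other members were named to show where a list did not follow, after their values were seen. Members and lists were chosen with earlier results of these data known. Some members are not reported here. Promoters are from RefSeq. Alternatives were the pseudocount, the filter, scaling, library weights, a replicate block and leaving out libraries. Figures were drawn with Python 3.11.15 and matplotlib 3.10.9.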

Additional observations from a re-analysis of the deposited data

Results flagged for a closer look

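Within the 4 Krt5-high libraries, 34 genes were screened for a library far from the others, and 4 were found; chance flags about 1 in 20 groups of this size. Gdf15 in Vehicle 1, at 7.403 TPM, was far above the other Krt5-high libraries, which had 0.25 to 0.67 TPM. Fgf21 was high in the same library, at 1.392 TPM against 0.10 to 0.29 TPM. Krt6a was high in SRT1720 3, at 550.4 TPM against 371 to 395 TPM. Krt16 was low in Vehicle 3, at 21.58 TPM against 51.7 to 55.3 TPM.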

How the results depend on the processing

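With a mean of at least 5 TPM required, 119 genes were counted higher and 108 lower in the Krt5-low libraries, and with a pseudocount of 0.1 these were 363 and 321. Leaving out 1 library at a time gave 179 to 303 higher and 178 to 328 lower genes, with the 328 reached without SRT1720 1, where 1 library alone stands for the Krt5-low side. Treatment calls by limma were 0 under all alternatives run except without SRT1720 3 and Vehicle 3, where they were 258. Treatment genes at an unadjusted p under 0.05 numbered 1033 in the Krt5-high libraries alone, 745 with the 5 TPM filter, 2728 with no filter, and 945 to 1688 with 1 library left out. The interaction gave 355 calls with no filter, and at an unadjusted p under 0.05 137 genes with the 5 TPM filter, 2688 with no filter and 81 to 366 with 1 library left out. The cause was not tested. The replicate block and leaving out SRT1720 3 and Vehicle 3 give the same difference between the sides, since both libraries numbered 3 are Krt5-high. Under both, the median of urothelial transcription factors turned to 0.04108, and without SRT1720 3 it turned to 0.03564. With 1 library left out this median ran from -0.1333 to 0.03564, the difference of Rps27 from -1.803 to 0.3773 and that of mt-Atp8 from 2.304 to -0.386, the last value of each of these 2 genes being that without Vehicle 2. Of 2379 alternative values for single genes between the Krt5 sides, 2275 stayed within the spread, 102 moved and 2 turned. Of 471 list medians, 409 stayed, 59 moved and 3 turned, with the replicate block and the fit without both libraries numbered 3 counted separately. The median of all genes was 0.03 as deposited and nearer 0 under both other scalings.

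Replicate numbers went with the correlated pairs for number 3 only. Deviations from the treatment means correlated at -0.20 for the replicates numbered 1, -0.26 for those numbered 2 and 0.79 for those numbered 3. They correlated at 0.72 between SRT1720 1 and Vehicle 2 and at 0.68 between SRT1720 2 and Vehicle 1. With the replicate block, 164 genes were counted higher and 144 lower, and treatment gave 0 calls and 2740 genes at an unadjusted p under 0.05. The interaction could not be fitted with the block, without a Krt5-low library or without both libraries numbered 3. Depth limits genes near the filter of 1 TPM.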
